A study of Mus musculus with 12 samples.

Results

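Retinas of 5xFAD mice at 6 months of age were compared with those of WT mice of the same age by sequencing of polyadenylated RNA, in 6 of the 12 libraries of the series: 3 libraries labelled 5xFAD at 6 months and 3 labelled WT at 6 months. The members were chosen by genotype and age in the labels, and every gene and transcript with enough counts was followed across them. WT mice were C57BL/6J. The 5xFAD mice carry the strain label Tg6799, a line in which transgenes, mutant human APP among them, are driven by the neuronal Thy1 promoter, and no group received a treatment according to the labels. The remaining 6 libraries, 3 WT and 3 5xFAD at 1 month of age, entered the same model and served for the comparison of ages. The labels give a tissue mass for the extraction but do not say how many retinas made a library, or that each library came from its own animal. The p-values therefore measure the spread between these libraries, which may be technical.

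The retina is a layered sensory tissue in which rods and cones convert light into an electrical signal, bipolar, horizontal and amacrine interneurons process it at ribbon and conventional synapses, and ganglion cells send it to the brain. Rods make up the bulk of the cells of the mouse retina, and their phototransduction genes are prominent in its RNA. 5xFAD mice accumulate amyloid-beta in the brain early in life, and the comparison asks how retinal RNA differs once the animals are adult.

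Levels are given as TMM-scaled counts-per-million (CPM), for each library in the order of its replicate number. A gene was called when the edgeR quasi-likelihood test over all 12 libraries gave a Benjamini-Hochberg adjusted p below 0.05 across all 16233 genes tested. "Rose" and "fell" are used of called genes, for 5xFAD relative to WT, and values after ± are the SE for log2 fold changes and the SD for levels and shares (n = 3 libraries per group). Genes were kept apart as near-identical when at least 25% of their distinct 31-base words occur in another annotated gene, or when they are pseudogenes or mitochondrially encoded, because the counting model has to divide their reads. This left 14005 genes outside the near-identical sets. Over all 16233 genes 1035 were called (6.38%), 403 higher (2.48%) and 632 lower (3.89%). Each library of one genotype lay above each of the other for 3366 of the 14005 genes (24%), so a lack of overlap alone is common here. It held for 799 of the 850 genes called outside the sets, so it adds little to a call. Whole tissue was sequenced, so fewer cells of a type and less RNA per cell cannot be told apart.

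The libraries differed in composition as well as in single genes. Totals ran from 14693701 to 19552537 counts in WT and from 11951787 to 14137974 counts in 5xFAD. Ribosomal RNA was taken as the annotated rRNA and mitochondrial rRNA classes plus the loci Gm26917, Gm42418, AY036118 and Rn45s. It took 0.165 to 0.244% of counts in WT and 1.44, 0.758 and 0.291% in 5xFAD. By library total, the separate gene list of ribosomal RNA summed to 1369 to 1832 CPM in WT and to 3305, 3117 and 2381 CPM in 5xFAD. The mean transcript length behind a count was 4019, 4022 and 3692 nt in WT and 3615, 3638.5 and 3720 nt in 5xFAD, so that WT replicate 3 lay among the 5xFAD libraries (exact permutation test, two-sided, p = 0.2; 3 against 3 cannot go below 0.1). Defining markers of rods, cones, bipolar, amacrine, horizontal and ganglion cells and Müller glia had counts in all 6 libraries. By library total, the pigment epithelium gene Rpe65 lay between 2.09 and 9.12 CPM and the microglial gene P2ry12 between 1.92 and 3.93 CPM. The muscle actin gene Acta1 lay between 0.354 and 1.33 CPM and the muscle gene Mylpf between 1.5 and 5.29 CPM. The lens genes Crygs and Mip were at 0 in all 6 libraries. The lens gene Cryaa read 0.0681, 0 and 0 CPM in WT and 0.837, 1.04 and 0 CPM in 5xFAD. The blood gene Hbb-bs read 4.29, 8.03 and 7.62 CPM in WT and 17.8, 14.3 and 10.1 CPM in 5xFAD. The groups overlapped for the blood gene Hba-a1, and Alas2 was at 0 in 5xFAD and at most 0.272 CPM in WT. Carry-over of other tissues was not tested. The genotype labels cannot be checked with the transgenes, since human sequences were not analysed here. Mouse App read 318, 316 and 302 CPM in WT and 288, 290 and 279 CPM in 5xFAD (log2 fold change -0.13 ± 0.10, edgeR adjusted p 0.502).

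At 6 months, genes with short transcripts were more often higher in 5xFAD and genes with long transcripts more often lower. Outside the near-identical sets edgeR called 850 of 14005 genes (6.07%), 273 higher (1.95%) and 577 lower (4.12%). Changes were small: the median absolute log2 fold change of the called genes was 0.52, and 73 of them (11 higher, 62 lower) changed at least 2-fold. The median transcript length was 1956 nt for the genes that rose and 5878 nt for those that fell, against 2909 nt for all genes tested outside the sets. Of 10 bins of equal size by length, the one with the shortest transcripts held 57 genes that rose and 2 that fell, and the one with the longest held 2 and 270. The median log2 fold change went from 0.16 in the shortest bin to -0.25 in the longest, through 0.03 and 0.01 in the fifth and the sixth, as the plot by length shows. With each library's trend on length and GC content removed, 987 genes rose (7.05%) and 318 fell (2.27%), and 550 of the 850 calls remained in the same direction, while the median log2 fold change of the 14005 genes moved from -0.01 to 0.08. Directions below are given on the counts as deposited, with the counts after removal of the trend beside most gene groups. Counts of a gene list cover its members outside the near-identical sets unless stated.

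**Figure D1:**
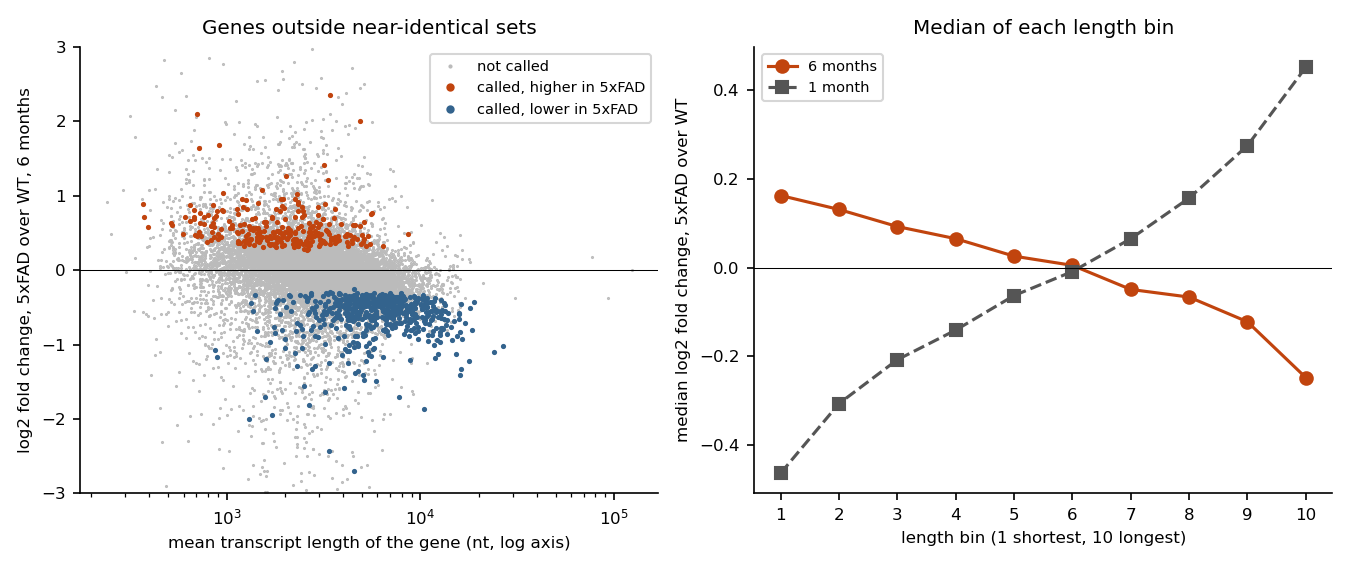
Left, log2 fold change of 5xFAD over WT at 6 months against mean transcript length (nt, log axis) for genes outside near-identical sets; red points rose, blue points fell, grey points were not called, and 58 genes beyond ±3, 10 of them called, are not drawn. Right, the median log2 fold change of each length bin, red for 6 months and dashed grey for 1 month: the 6-month medians fall from 0.16 to -0.25 while the 1-month medians climb from -0.46 to 0.45.

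The number of calls depended on single libraries. It was 275 when WT replicate 1 was left out, 199 for WT replicate 2, 439 for 5xFAD replicate 1, 457 for 5xFAD replicate 2 and 1438 for 5xFAD replicate 3. With the 3 libraries that hold the most ribosomal RNA left out (rRNA-rich below), which leaves 5xFAD at 6 months with replicate 3 alone, 227 genes were called (76 higher, 151 lower). In all, 179 genes were called in the full fit and in each of the 6 fits without 1 library, 38 higher (0.271% of the genes tested outside the sets) and 141 lower (1.01%). These are termed stable below, and where a gene named with its values is not stable the libraries that end its call are given. The term does not cover the fit with the rRNA-rich libraries left out, in which some stable genes, Kif4 and Kif3a among them, were not called.

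All called genes of cytosolic ribosomal proteins outside the near-identical sets were higher in 5xFAD, and few translation factors or mitochondrial ribosomal protein genes were called. Of 34 cytosolic ribosomal protein genes outside the near-identical sets, 11 rose and none fell, 33 had a positive log2 fold change, and the median was 0.35 against -0.01 over all genes outside the sets. Rpl9 (chr5:65388364-65391444, GRCm38), a protein of the large subunit, read 224, 225 and 279 CPM in WT and 411, 386 and 399 CPM in 5xFAD (log2 fold change of 0.71 ± 0.10, adjusted p 0.000144). Rps19, of the small subunit, read 63.3, 70.2 and 86.2 CPM in WT and 141, 149 and 114 CPM in 5xFAD (0.88 ± 0.13, adjusted p 0.000304). The groups did not overlap for either gene. Rps20 (0.96), Rps13 (0.72) and Rpl39 (0.71) were the other stable genes of the list. The 11 became 12 with the length trend removed, 6 with the rRNA-rich libraries left out, and 5 without WT replicate 1 or WT replicate 2. For 27 of the 34, the most abundant transcript shares at least 25% of its words with another gene, so the division of reads bears on them too. When the counts of each pseudogene were added to its parent gene, 39 of all 83 ribosomal protein genes rose, none fell, and 81 had a positive log2 fold change (median 0.38).

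Among 56 translation factors 3 rose and 1 fell (median 0.10; 10 and 1 with the trend removed). Eif1, which helps the small subunit find the start codon, read 184, 206 and 230 CPM in WT and 400, 338 and 376 CPM in 5xFAD (0.84 ± 0.09, adjusted p 8.28e-06). Eif3f, a subunit of the initiation factor that binds the small subunit, rose by 0.79 ± 0.12, from 70.7, 72.3 and 86.2 CPM to 131, 135 and 131 CPM. Tpt1 rose (0.44; call lost in 2 of the 6 fits without 1 library), and Eif4g1, the scaffold of the cap-binding complex, fell (-0.44; lost in 1 of them). Of 67 mitochondrial ribosomal protein genes, Mrps14 rose (0.82 ± 0.16) and Mrpl23 fell (1 and 1 with the trend removed). Mrpl23 read 17.2, 15.5 and 16.8 CPM in WT and 2.05, 5.34 and 4.90 CPM in 5xFAD (-2.0 ± 0.38, adjusted p 0.0029), and it shares 14.2% of its words with other genes, below the limit for near-identical sets.

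Of the nuclear genes of the respiratory chain and ATP synthase tested outside the near-identical sets, every called one was higher in 5xFAD, but most genes of the chain were not called. Of 14 genes of ATP synthase, the enzyme that makes ATP from the proton gradient, 7 rose (median 0.38; 9 with the trend removed). Atp5g3, a subunit of its membrane ring, read 109, 120 and 142 CPM in WT and 195, 201 and 179 CPM in 5xFAD (0.64 ± 0.10, adjusted p 0.000441). Atp5mpl (0.89 ± 0.13) and Atp5k (0.72 ± 0.13), both small accessory subunits, rose as well. The 7 became 4 when WT replicate 1 was left out, 3 for WT replicate 2 and 5 with the rRNA-rich libraries left out. Of 31 complex I genes 3 rose (median 0.27; 3 higher and 1 lower with the trend removed). Of 12 genes of complexes II and III 1 rose (median 0.17; 5 and 0), and of 14 complex IV genes 3 rose (median 0.13; 3 and 0). Ndufa4 read 127, 142 and 159 CPM in WT and 225, 204 and 222 CPM in 5xFAD (0.60 ± 0.09, adjusted p 0.000441), and Cox5a, a subunit of cytochrome c oxidase, rose by 0.69 ± 0.14. Ndufb9 (0.46), Uqcrfs1 (0.54), Cox6c (0.41) and Cox4i1 (0.46) were also called, none of them stably: each of these calls was lost without WT replicate 1, WT replicate 2 or both.

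Of 32 proteasome genes 4 rose and none fell (median 0.20; 8 and 0 with the trend removed). Psmb4, a beta subunit of the core particle, read 63.3, 62.9 and 67.2 CPM in WT and 106, 92.4 and 87.1 CPM in 5xFAD (0.56 ± 0.11, adjusted p 0.00277). Psmb1, Psmc5 and Psmd14 were the other genes, with log2 fold changes between 0.41 and 0.52, and the 4 became 1 without WT replicate 1 or WT replicate 2. Map1lc3a, which encodes the LC3 protein of autophagosome membranes, rose from 35.6, 35.3 and 41.3 CPM to 68.1, 74.9 and 53.5 CPM (0.81 ± 0.14, adjusted p 0.00108). Of 12 cytosolic chaperone genes outside the near-identical sets none was called by edgeR, also with the trend removed, and 1 by DESeq2, while 1 had a positive log2 fold change. Their median of -0.20 became -0.02 with the rRNA-rich libraries left out, and 5 fell when 5xFAD replicate 3 was left out. With the near-identical members included and pseudogenes added to their parents, 3 of 19 chaperone genes fell: Hspa8 (-0.36), Hspa1a (-0.42) and Hspa1b (-0.59). Of 24 genes of endoplasmic reticulum chaperones and the unfolded protein response 2 fell (1 with the trend removed). The chaperone gene Hspa5 read 252, 242 and 318 CPM in WT and 195, 203 and 214 CPM in 5xFAD (-0.41 ± 0.10), and leaving out WT replicate 3 (adjusted p 0.062), 5xFAD replicate 1 (0.059) or 5xFAD replicate 2 (0.053) ended its call. The stress sensor gene Ern1 (-0.59 ± 0.16) lost its call without WT replicate 1 or 2 and without 5xFAD replicate 1 or 2. Of 12 glycolysis genes outside the sets Pfkp fell (-0.42 ± 0.09), while 2 were higher and none lower with the trend removed. With near-identical members included and pseudogenes added, 3 of 18 glycolysis genes rose, Pgam1 (0.52), Pgk1 (0.37) and Pkm (0.34), and 2 fell. Of 18 cholesterol synthesis genes Sc5d fell (-0.62 ± 0.14).

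Photoreceptor genes moved in both directions, and 3 of 12 cone genes and the rod regulator Nrl were called higher, none of them stably. Of 21 rod phototransduction genes 4 rose and 2 fell (median 0.12; 11 and 1 with the trend removed). Gnb1 (0.29), Pdc (0.33) and Guca1b (0.36) rose, and the guanylate cyclases that restore cyclic GMP after light, Gucy2e (-0.30) and Gucy2f (-0.58), fell. Without WT replicate 1 or WT replicate 2 the 4 higher and 2 lower genes became 1 and 0.

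Of 12 cone phototransduction genes 3 rose and none fell (median 0.16; 5 and 0 with the trend removed). Gnat2, the cone transducin subunit, read 157, 154 and 173 CPM in WT and 226, 245 and 217 CPM in 5xFAD (0.51 ± 0.11; adjusted p 0.00523, and 0.061 without WT replicate 2). The middle-wavelength cone opsin Opn1mw read 80.6, 90.5 and 114 CPM in WT and 141, 159 and 136 CPM in 5xFAD (0.61 ± 0.13; adjusted p 0.058 without WT replicate 1). Cone arrestin, Arr3, read 361, 310 and 367 CPM in WT and 451, 532 and 499 CPM in 5xFAD (0.51 ± 0.11; adjusted p 0.087 without WT replicate 2). The groups did not overlap for these 3 genes, and none of them was called with the rRNA-rich libraries left out.

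Among 14 photoreceptor transcription factors Nrl, Rorb and Esrrb rose and none fell (median 0.06). Nrl, which specifies rods, read 1334, 1339 and 1549 CPM in WT and 1991, 1852 and 1798 CPM in 5xFAD (0.42 ± 0.09; adjusted p 0.00477, or 0.053 and 0.064 when WT replicate 1 or 2 was left out). The nuclear receptor gene Rorb, whose transcripts are long, read 216, 230 and 172 CPM in WT and 267, 282 and 319 CPM in 5xFAD (0.49 ± 0.11, adjusted p 0.00684), and its call was stable. Esrrb (0.38 ± 0.11) lost its call without WT replicate 1 or 3 and without 5xFAD replicate 1 or 2. Of 21 outer segment and cilium genes the disc rim genes Rom1 (0.44) and Prph2 (0.27) rose and Impg1, a proteoglycan of the matrix around photoreceptors, fell (11 and 1 with the trend removed). Both rim genes lost their call without WT replicate 1 or WT replicate 2. Impg1 was stable and read 398, 403 and 362 CPM in WT and 248, 265 and 328 CPM in 5xFAD (-0.47 ± 0.10). Crb1, which encodes a protein of the outer limiting membrane and differs between mouse substrains, read 197, 187 and 268 CPM in WT and 454, 325 and 334 CPM in 5xFAD (0.77 ± 0.16; adjusted p 0.077 and 0.066 when WT replicate 1 or 2 was left out). Pde6b, another gene with strain variants, was not called (0.12 ± 0.08, adjusted p 0.4).

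Photoreceptor genes are known to be regulated by the homeodomain factor CRX, which binds TAATCC, and the window of 250 bases upstream of the start was searched for these letters on either strand. Of 71 photoreceptor genes tested, near-identical members included, 53 matched the RefSeq promoter table of GRCm38.p6. Of these, 17 (32.1%) held the motif, against 1949 of 27025 genes in the table (7.21%). Of the 12 photoreceptor genes outside the near-identical sets that rose 10 matched, and 1 of these, Gnat2, held it. The 1 near-identical transcription factor gene that rose is not counted among the 12. A match describes these letters in this window and is no measure of binding. The stretch of the Gnat2 promoter at chr3:108093020-108093065, plus strand, is shown with the motif, as it reads on this strand, in capitals.
Gnat2: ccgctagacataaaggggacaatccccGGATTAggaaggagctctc

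In the lists of synaptic genes every called gene was lower in 5xFAD, and most members were not called. Of 20 ribbon and active zone genes 5 fell and none rose (median -0.16; 2 higher and 2 lower with the trend removed). Rims1, a scaffold of the release site, read 117, 117 and 102 CPM in WT and 67.0, 60.2 and 74.3 CPM in 5xFAD (-0.74 ± 0.11, adjusted p 0.000412). Bsn, a large scaffold that anchors ribbons, read 180, 198 and 152 CPM in WT and 114, 113 and 109 CPM in 5xFAD (-0.65 ± 0.11, adjusted p 0.00103). Both calls were stable and neither pair of groups overlapped. Rimbp2 (-0.55), Pclo (-0.57) and Unc13c (-0.55) fell too, and their calls were lost without WT replicate 1 or WT replicate 2. Of 25 synaptic vesicle genes 5 fell (median -0.13; 1 higher and 3 lower with the trend removed). Cplx2, a clamp of the fusion machinery (-0.49 ± 0.10), was stable among them, and Syt1, Syt11 and Sv2a fell without being stable.

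On the receiving side, 5 of 18 postsynaptic scaffold genes fell and none rose (median -0.22; 1 higher and 3 lower with the trend removed). Shank1 (chr7:44310253-44360572), a master scaffold of excitatory synapses, read 136, 129 and 129 CPM in WT and 65.8, 86.5 and 67.8 CPM in 5xFAD (-0.84 ± 0.12, adjusted p 0.000189). Sipa1l1 (-0.63 ± 0.13), a regulator of small GTPases at these synapses, was stable with it, and Dlgap1 (-0.43) and Dlg2 (-0.41) were not. Of 25 glutamate receptor genes 3 fell (median -0.32; 1 higher and 3 lower with the trend removed). Grin2b, an NMDA receptor subunit, read 37.3, 35.4 and 17.8 CPM in WT and 16.4, 11.9 and 13.8 CPM in 5xFAD (-1.10 ± 0.23, adjusted p 0.00684). WT replicate 3 lay just above the 5xFAD libraries for Grin2b. The kainate receptor gene Grik1 (-0.49 ± 0.11) and the AMPA receptor gene Gria2 (-0.60; lost in 2 of the 6 fits) also fell. Of 23 GABA and glycine receptor genes Gabbr2 (-0.67 ± 0.12, stable) and Gabrr2 (-0.41, not stable) fell (median -0.29; 0 and 2). Of 24 genes of neurexins, neuroligins and adhesion Nrxn3 (-0.54), Sdk2 (-0.72), Adgrl3 (-0.66) and Lrrc4 (-0.64) fell (median -0.30). None of these 4 was stable, 0 were called without WT replicate 1, and with the trend removed 2 genes of the list were higher and 1 lower.

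Called ion channel genes were lower too, as were most called genes with long transcripts. Of 63 potassium channel genes 12 fell and none rose (median -0.25; 2 higher and 10 lower with the trend removed), and 6 of the 12 were stable. Kcnk9, a leak channel, read 33.2, 35.7 and 29.9 CPM in WT and 15.4, 15.8 and 14.1 CPM in 5xFAD (-1.12 ± 0.16, adjusted p 0.000189). Kcna2, a delayed rectifier of axons, read 129, 132 and 85.2 CPM in WT and 65.8, 56.2 and 67.9 CPM in 5xFAD (-0.87 ± 0.14, adjusted p 0.000933). Kcnh5 (-1.59 ± 0.29) and Kcnma1 (-0.56) were stable as well. Kcnj10, also stable, the inward rectifier through which Müller glia clear potassium, read 77.5, 75.2 and 73.8 CPM in WT and 43.6, 38.2 and 53.9 CPM in 5xFAD (-0.74 ± 0.13, adjusted p 0.00151). The 12 became 6 without WT replicate 2 and 3 with the rRNA-rich libraries left out. Of 36 sodium and calcium channel genes Cacna1a (-0.59 ± 0.12), Cacng7 (-0.55 ± 0.12) and Cacna1e (-0.94, not stable) fell (median -0.24), whereas 6 genes of the list were higher and 2 lower with the trend removed. The median length of the 36 genes was 5903 nt. In the length bin from 4768 to 6218 nt, 111 of 1398 genes fell and 12 rose, so 3 falls among 36 are near that share. Slc8a1, the sodium-calcium exchanger, read 115, 119 and 91.5 CPM in WT and 32.6, 49.5 and 57.4 CPM in 5xFAD (-1.22 ± 0.18, adjusted p 0.000956).

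**Figure D2:**
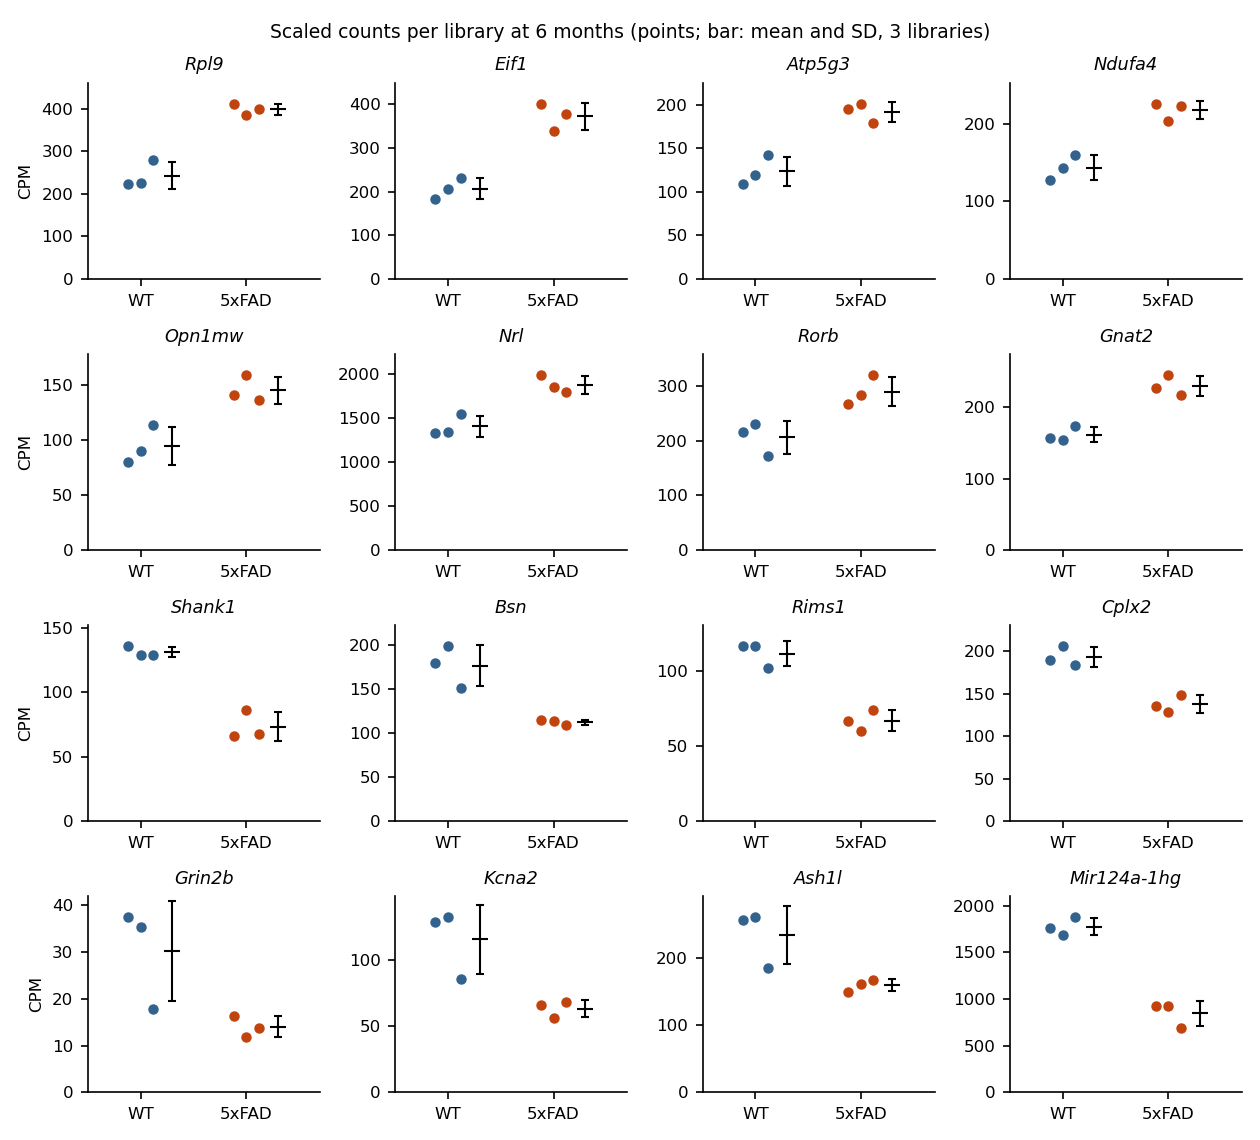
CPM of 16 genes in each library at 6 months (y axes start at 0), blue for WT and red for 5xFAD, with the mean and SD of the 3 libraries beside the points. The libraries of the genotypes do not overlap in any panel; in Grin2b, Kcna2 and Ash1l, WT replicate 3, the rightmost blue point, lies nearest to 5xFAD.

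Large cytoskeletal linkers, chromatin enzymes and RNA-binding regulators, whose transcripts are long, had more lower than higher calls as well, and several of these counts changed sides when the length trend was removed. Of 19 spectrin, ankyrin and linker genes 6 fell, and with the trend removed 4 were higher and none lower. Sptbn1 was the stable one (-0.46 ± 0.09), and with the trend removed it was at -0.18 with adjusted p 0.092. Of 30 kinesin genes 1 rose and 4 fell (2 and 1 with the trend removed). Kif3a, a motor of intraflagellar transport, read 78.2, 76.2 and 65.1 CPM in WT and 38.7, 37.2 and 52.9 CPM in 5xFAD (-0.77 ± 0.13, adjusted p 0.000956). Kif4, a chromosome-bound motor, rose from 5.12, 6.47 and 4.97 CPM to 32.8, 21.3 and 12.8 CPM (2.01 ± 0.29, adjusted p 0.000244), the largest rise among the genes outside the near-identical sets that the naming rule admitted. The Kif4 levels in 5xFAD followed the order of ribosomal RNA in these libraries (1.44, 0.758 and 0.291% of counts), a relation that was not tested. Kif5a, Kif5c and Kif1b fell by 0.37 to 0.45 on the log2 scale and were not stable. Of 34 intraflagellar transport and BBSome genes Kif3a and Bbs7 (-0.38, not stable) fell.

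Of 52 histone lysine methyltransferase and demethylase genes 13 fell and 1, Kdm1a, rose (median -0.14; 3 lower and 5 higher with the trend removed). The stable genes included Kdm2a (-0.56 ± 0.10), Setd1b (-0.75 ± 0.15), Setd7 (-0.77 ± 0.16) and Ash1l, which read 257, 261 and 185 CPM in WT and 150, 162 and 168 CPM in 5xFAD (-0.55 ± 0.11, adjusted p 0.00483). The 13 became 7 when WT replicate 1 or 5xFAD replicate 2 was left out, 5 when WT replicate 2 was, and 4 with the rRNA-rich libraries left out. Of 22 neuronal splicing regulators 5 fell (median -0.21; 2 higher and 4 lower with the trend removed), with Elavl3 (-0.51 ± 0.10) and Rbfox2 (-0.51 ± 0.11) stable and Celf2, Celf5 and Rbfox1 not. Of 27 SR proteins and related splicing factors 2 rose and 3 fell (2 and 3 with the trend removed); Sfpq, a paraspeckle protein, fell stably (-0.51 ± 0.10). Of 46 core spliceosome genes Prpf38a (0.70) and Snrpa1 (0.56) rose, and of 21 hnRNP genes Hnrnpa0 rose (0.52), none of these 3 stably (7 and 2 higher with the trend removed).

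Of 13 noncoding RNAs of the nucleus and nervous system 1 rose and 3 fell, all 4 stable, also with the rRNA-rich libraries left out. Mir124a-1hg (chr14:64587331-64593961), the host RNA of the neuronal microRNA miR-124, read 1761, 1689 and 1875 CPM in WT and 930, 924 and 691 CPM in 5xFAD (-1.06 ± 0.10, adjusted p 8e-07). The maternally expressed RNA Meg3 read 1822, 1788 and 1286 CPM in WT and 1080, 1256 and 1046 CPM in 5xFAD (-0.53 ± 0.11), and with the trend removed it was at -0.17 with adjusted p 0.11. Peg13 fell by 0.43 ± 0.09 on the log2 scale. Snhg14, the long transcript of the imprinted Prader-Willi region, rose from 82.1, 67.4 and 65.2 CPM to 113, 108 and 109 CPM (0.62 ± 0.11, adjusted p 0.00148).

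**Figure D3:**
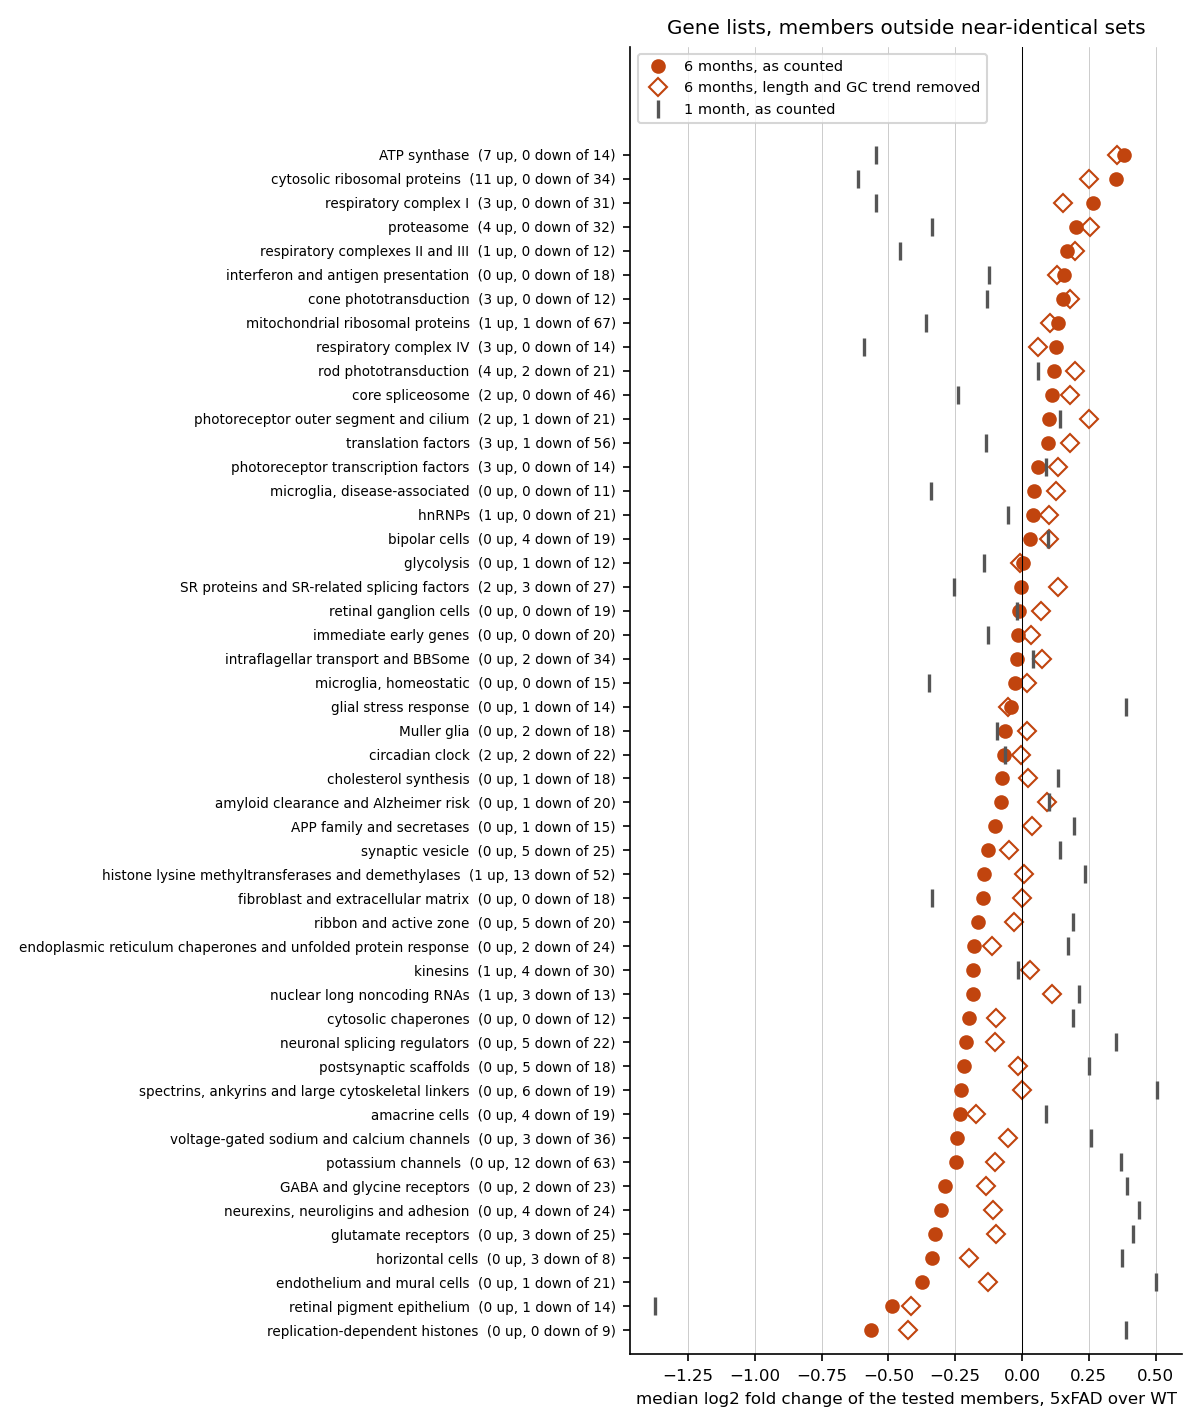
Median log2 fold change of each gene list, members outside near-identical sets with at least 8 tested: filled circles for 6 months as counted, open diamonds with the length and GC trend removed, and bars for 1 month. The number of called genes stands beside each name; ATP synthase (0.38) and ribosomal proteins (0.35) lie at the top at 6 months and below -0.5 at 1 month.

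Markers of inner retinal neurons fell in part, and ganglion cell markers were not called. Of 19 bipolar cell genes none rose and 4 fell (median 0.03; 1 higher and 4 lower with the trend removed). Prkca, the kinase that labels rod bipolar cells, was at 367, 376 and 276 CPM in WT and 220, 218 and 253 CPM in 5xFAD (-0.56 ± 0.11, adjusted p 0.00278), and Grik1 is named above. Nyx (-0.87) and Gnao1 (-0.32) were not stable, and 0 of the 4 were called with the rRNA-rich libraries left out. Of 19 amacrine cell genes 4 fell (median -0.23; 3 with the trend removed): the transcription factors Tfap2b (-0.53 ± 0.10) and Ebf1 (-0.92 ± 0.18), both stable, and Gad2 and Prox1, which were not. Of 8 horizontal cell genes 3 fell (median -0.33), 2 of which, Tfap2b and Prox1, are also on the amacrine list, and Onecut2 (-1.32; lost in 1 of the 6 fits) is the third (1 higher and 2 lower with the trend removed). With the rRNA-rich libraries left out 0 genes of either list were called, and the amacrine count was 2 when WT replicate 1, WT replicate 2 or 5xFAD replicate 1 was left out. The horizontal count was 1 when WT replicate 2 was left out. Of 19 ganglion cell genes none passed the edgeR test (1 higher and 1 lower with the trend removed). Pou4f1, a transcription factor of these cells, had the smallest p outside the near-identical sets (0.37 ± 0.16, adjusted p 0.175), and Thy1, whose promoter drives the transgenes, read 144, 154 and 171 CPM in WT and 172, 177 and 176 CPM in 5xFAD (0.16 ± 0.09, adjusted p 0.323).

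Few glial and immune genes were called. Of 18 Müller glia genes Kcnj10 and Abca8a (-0.34, not stable) fell, and of 14 genes of the glial stress response Cp, the ceruloplasmin gene, fell (-0.48 ± 0.12), with the call lost without WT replicate 1 or 2 and without 5xFAD replicate 1 or 2. Gfap, the filament protein of reactive glia, read 2.56, 4.58 and 7.66 CPM in WT and 3.75, 7.36 and 5.82 CPM in 5xFAD (0.19 ± 0.40, adjusted p 0.849), and the groups overlapped. None of 15 homeostatic microglia genes, 11 disease-associated microglia genes or 18 interferon and antigen presentation genes passed the edgeR test. Those nearest to it were Csf1r (0.41 ± 0.25, adjusted p 0.39) and Laptm5 (0.80 ± 0.53, adjusted p 0.426), Cd9 (0.30 ± 0.14, adjusted p 0.196) and Tap2 (0.77 ± 0.26, adjusted p 0.083). Summed over the homeostatic list, levels ran from 68.4 to 79.8 CPM in WT and from 71.3 to 93.8 CPM in 5xFAD.

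Of 15 genes of the APP family and its secretases 1 fell, and of 20 genes of amyloid clearance and Alzheimer risk 1 fell. The first was Apba1, which encodes an adaptor that binds APP, at 128, 125 and 117 CPM in WT and 68, 80.3 and 89.3 CPM in 5xFAD (-0.64 ± 0.12, adjusted p 0.00172). The second was Mme, which encodes the amyloid-degrading protease neprilysin, at 3.30, 2.04 and 1.98 CPM in WT and 0, 0 and 0.284 CPM in 5xFAD (adjusted p 0.0287). At these low counts the Mme call was lost without WT replicate 1 or 2 and without 5xFAD replicate 1 or 2 (adjusted p 0.09 to 0.15). Apoe was not called (-0.28 ± 0.14, adjusted p 0.277). Of 21 endothelial and mural genes the VEGF receptor gene Kdr fell (-0.62 ± 0.11, adjusted p 0.000999), and the list's median was -0.37. Of 14 pigment epithelium genes Trpm3, the host gene of miR-204, fell (-0.69 ± 0.15), with adjusted p of 0.055 when WT replicate 1, 0.064 when WT replicate 2 and 0.054 when 5xFAD replicate 1 was left out. The pigment epithelium list had a median of -0.49, and its summed level ran from 661 to 733 CPM in WT and from 585 to 646 CPM in 5xFAD. The part of attached epithelium in these values was not tested. Of 22 clock genes Rorb and Nr1d2 (0.36) rose and Per1 (-0.56) and Rora (-0.45) fell, the last 3 not stably, while 5 clock genes were higher and none lower with the trend removed.

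Several of the largest changes outside the near-identical sets belonged to no list above. The fatty acid binding protein gene Fabp4 read 9.03, 6.67 and 8.44 CPM in WT and 18.0, 19.3 and 18.7 CPM in 5xFAD (1.22 ± 0.20, adjusted p 0.000799). Ccdc51, which encodes a subunit of a mitochondrial potassium channel, rose by 1.07 ± 0.18, and the carnitine synthesis gene Tmlhe by 0.70 ± 0.13. Among the genes that fell, Soga1 read 27.8, 28.3 and 14.4 CPM in WT and 6.74, 6.06 and 8.87 CPM in 5xFAD (-1.70 ± 0.22, adjusted p 8.01e-05). Ankrd52, a regulatory subunit of protein phosphatase 6, read 110, 118 and 80.5 CPM in WT and 37.4, 51.7 and 48.8 CPM in 5xFAD (-1.16 ± 0.15, adjusted p 5.1e-05). The neuregulin receptor gene Erbb4 (-1.18 ± 0.23), the teneurin gene Tenm1 (-0.96 ± 0.20) and the protocadherin gene Pcdhb16 (-1.23 ± 0.25) fell. The endosomal exchanger gene Slc9a7 (-1.04 ± 0.20), Mtcp1 (-1.56), Tmem178b (-1.16) and Clmn (-1.01) fell too. The groups did not overlap for these genes, but the naming rule admitted only such genes. WT replicate 3 had the lowest WT level in each of these 9 falling genes, between the other WT libraries and the 5xFAD libraries. Wdfy1, a gene with strain variants, was at -0.68 ± 0.20 (adjusted p 0.0485), and without 1 library the call was lost in 5 of 6 fits.

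The genotype difference at 6 months was not the one seen at 1 month. At 1 month the same model called 2804 genes outside the near-identical sets (20%), and the interaction of genotype and age was called for 3545 (25.3%). Of the 850 genes called at 6 months 799 had a called interaction, and 580 were called at 1 month with the opposite sign (68.2% of the 6-month calls and 20.7% of the 1-month calls). Those that rose at 6 months had a median log2 fold change of -0.36 at 1 month, and those that fell a median of 0.65. In the length bins the 1-month medians went from -0.46 in the shortest to 0.45 in the longest, against 0.16 to -0.25 at 6 months. The ribosomal proteins had a 1-month median of -0.61 and complex I of -0.55, where both were positive at 6 months, and potassium channels, glutamate receptors and postsynaptic scaffolds were positive at 1 month. Odf2 (-0.40 and -0.41 at 1 and 6 months) and Ddx3y (0.48 and 0.46) were called at both ages in the same direction. They were the 2 such genes outside the near-identical sets, and both were chosen after their values were seen. Within those sets 3 genes were called at both ages in the same direction. The mean transcript length behind a count moved with this pattern, from 3553.5 to 3790.5 nt in WT and from 4220 to 4250 nt in 5xFAD at 1 month, and its part in the differences was not tested. The labels give no batch. The genotype labels rest on the submitters alone here, and an exchange of them at one age, which would turn the directions at that age, was not tested.

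Genes whose sequence recurs in a near-identical copy gave larger folds, and their values depend on how the counting model divided the reads. Of 2228 such genes tested 185 were called (8.3%), 130 higher (5.83%) and 55 lower (2.47%), and 94 of them changed at least 2-fold. Leaving out each library in turn left 68 of the 185 called throughout (3.05% of the 2228 tested), and the groups did not overlap for 556 of the 2228 (25%). Of 488 pseudogenes 50 rose and 9 fell, and 41 of the 50 have a parent gene that shares at least 50% of their words, a ribosomal protein gene in 16 cases. For 27 of these 41 the summed family was not called. Pseudogenes took 1.25 ± 0.120% of counts in WT and 2.68 ± 0.0632% in 5xFAD, and mitochondrial genes 6.04 ± 0.571% and 5.05 ± 0.0513% (exact permutation test, two-sided, p = 0.1 for each, the smallest possible). Mitochondrial genes and their 7 nuclear copies together took 7.0 ± 0.680% and 7.34 ± 0.125% (exact permutation p = 0.4).

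For 3 such pairs 60 bases from the start of the coding part are printed from the GENCODE M21 transcripts of GRCm38. A read that lies within such a stretch matches both members. The stretch of mt-Co3 lies at chrM:8607-8666 on the plus strand and that of its nuclear copy Gm28437 at chr1:24613912-24613971 on the minus strand, and the transcripts are identical over 783 nt. The stretch of mt-Co2 lies at chrM:7013-7072, plus strand, and that of Gm28661 at chr1:24615506-24615565, minus strand, identical over 681 nt. For Rpl28 the coding start at chr7:4793329-4793388, plus strand, is shown beside Rpl28-ps1 at chr1:128038569-128038628, plus strand, identical over 414 nt. The Rpl28 transcript has 1106 nt, and its part outside these 414 nt is not in the copy. All bases are in lower case because no position differs.
mt-Co3: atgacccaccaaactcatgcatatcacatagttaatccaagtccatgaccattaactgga
Gm28437: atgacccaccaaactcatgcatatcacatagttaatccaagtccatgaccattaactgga
mt-Co2: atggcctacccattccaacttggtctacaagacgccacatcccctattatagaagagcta
Gm28661: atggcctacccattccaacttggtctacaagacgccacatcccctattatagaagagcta
Rpl28: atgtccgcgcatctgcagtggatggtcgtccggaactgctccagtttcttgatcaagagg
Rpl28-ps1: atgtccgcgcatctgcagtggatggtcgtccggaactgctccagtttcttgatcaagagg

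In the mitochondrial pairs the gene was lower and its copy higher in 5xFAD. mt-Co3, which encodes a subunit of cytochrome c oxidase, read 6119, 6220 and 7425 CPM in WT and 758, 618 and 1113 CPM in 5xFAD. Its copy Gm28437 read 215, 227 and 361 CPM in WT and 7995, 7642 and 7228 CPM in 5xFAD. Summed, the pair read 6334 to 7787 CPM in WT and 8260 to 8753 CPM in 5xFAD (fold of means 1.23, exact permutation test, two-sided, p = 0.1). WT at 6 months was the group that stood apart: in the other 9 libraries mt-Co3 lay between 341 and 1113 CPM and Gm28437 between 3805 and 8502 CPM. Whether these 3 libraries were sequenced or processed otherwise is not given in the sources used here, and such a difference cannot be told apart from the genotype at 6 months. mt-Co2 read 4030, 3932 and 4603 CPM in WT and 565, 295 and 373 CPM in 5xFAD, and the sum with Gm28661 had a fold of means of 1.01 (exact permutation p = 1). For mt-Atp6 and Gm10925 the sum had a fold of 0.945 (exact permutation p = 0.6).

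Rpl28-ps1, the largest rise among these genes, read 0.741, 0.662 and 0.778 CPM in WT and 53.1, 21.1 and 32.3 CPM in 5xFAD, and 12.8 to 28.4 CPM at 1 month in both genotypes. Its parent Rpl28 read 114, 115 and 147 CPM in WT and 128, 145 and 105 CPM in 5xFAD, and the sum had a fold of means of 1.28 (exact permutation p = 0.2). Gm10275 with Rpl12, Gm14303 with Rps29 and Gm13835 with Psma3 also had larger folds in the copies (16.1, 16 and 14.1) than in the sums (1.14, 1.31 and 1.28). Among the lower genes, Gm49450, which overlaps Tuba1a and shares 76.5% of its words with it, read 53.4, 79.8 and 56.3 CPM in WT and 0, 0 and 0.781 CPM in 5xFAD, while Tuba1a itself had a fold of 1.04. Gm7336, a copy of the glycolysis gene Gapdh, read 104, 100.5 and 110 CPM in WT and 23.5, 18.3 and 13.5 CPM in 5xFAD, with the sum at a fold of 0.740 (exact permutation p = 0.1). Rps4x, a ribosomal protein gene with many copies, rose from 156, 158 and 198 CPM to 315, 288 and 292 CPM (0.81 ± 0.10, adjusted p 1.95e-05).

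**Figure D4:**
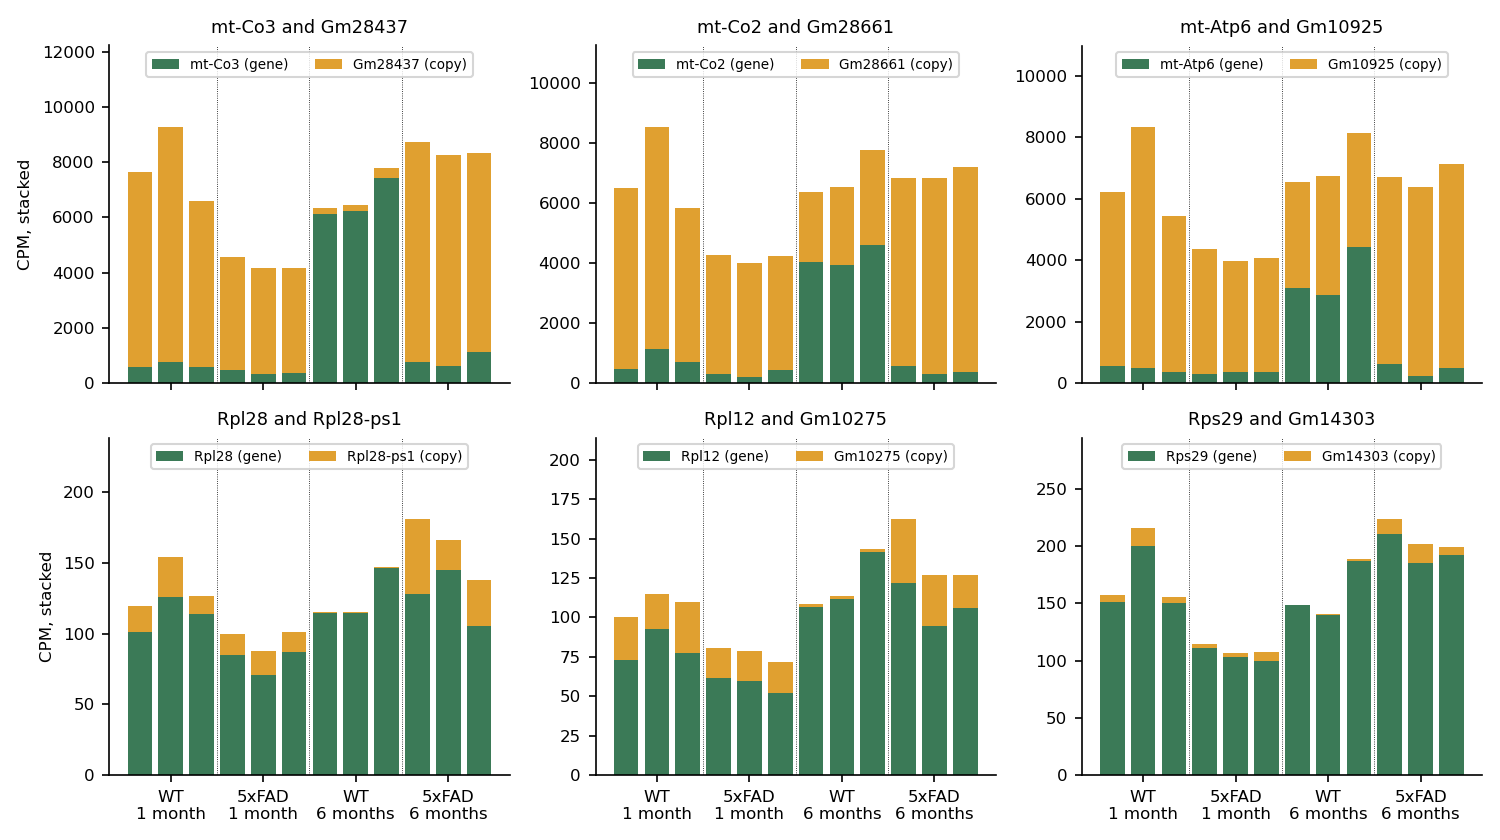
Stacked CPM of 6 genes (green) and their near-identical copies (orange) in all 12 libraries, by group. In the 3 WT libraries at 6 months the mitochondrial gene takes a larger part of the stack than elsewhere (mt-Co3 6119 to 7425 CPM against 341 to 1113), and the orange parts of the ribosomal protein pairs are close to 0.

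At transcript level edgeR called 221 of 45326 transcripts (0.488%), 75 higher (0.165%) and 146 lower (0.322%). Outside the near-identical sets there were 177, 46 higher and 131 lower, from 169 genes, and for 101 of them the gene itself was not called. In all, 21 of the 177 were called in each of the 6 fits without 1 library. Their number of 221 became 57 when WT replicate 1 was left out, 36 for WT replicate 2 and 129 for either of 5xFAD replicates 1 and 2, and it was 3737 with the Wald test of DESeq2. The largest changes were transcripts at 0 in every library of one genotype. Their fold is the mean level of the other genotype over a floor of 3 counts in the group at 0. It leaves out the spread between libraries and is no lower bound. The counting model also divides reads among the transcripts of 1 gene. A 0 therefore depends on that division, and the fold holds only for the counts as divided. Rtn1-205, a noncoding transcript of the reticulon gene Rtn1, was at 0 in all 3 WT libraries and at 39.1, 33.6 and 27.9 CPM in 5xFAD. Its 5xFAD mean was 557-fold above the floor (edgeR adjusted p 0.00763). The gene Rtn1 was at 222 ± 11.4 CPM in WT and 223 ± 6.39 CPM in 5xFAD. Zmynd11-204, a coding transcript of a chromatin reader, was at 0 in WT and at 21.2, 35.4 and 20.4 CPM in 5xFAD (mean 426-fold above the floor, edgeR adjusted p 0.0116). Both calls were stable, but neither held with the replicate number added to the model as a block (edgeR adjusted p 0.0661 and 0.109).

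In the other direction, Arhgap35-202, of a GTPase-activating protein, read 65.9, 77.6 and 22.8 CPM in WT and 0 in all 3 5xFAD libraries. Its WT mean was 712-fold above the floor (edgeR adjusted p 0.0081). Arid1a-201, a coding transcript of a subunit of the BAF chromatin remodeller, read 59.8, 44.7 and 26.1 CPM in WT and 0 in 5xFAD (WT mean 560-fold above the floor, edgeR adjusted p 0.00442). Both were stable, and the genes moved less: Arid1a by -0.52 (adjusted p 0.00395) and Arhgap35 by -0.33 (adjusted p 0.0609). Ppef2-203, Wapl-204, Prdx5-205, Usp8-203, Map4-213 and Dido1-201 were also at 0 in all WT libraries, and Kif1a-203, Mbnl1-218, Ppp1cb-203, Ndst3-205, Atp2c1-218 and Cpe-202 in all 5xFAD libraries by rounded counts. The calls of these 12 were each lost in at least 1 fit without 1 library. With the replicate block no transcript named here was called, and Arhgap35-202 and Arid1a-201 were both at an edgeR adjusted p of 0.0558.

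The 1-month libraries held these transcripts in the crossed pattern. Rtn1-205 was at 21, 8.54 and 23.3 CPM in WT at 1 month and 0 in all 3 5xFAD libraries of that age, and Arhgap35-202 was at 0 in WT and at 75.1, 92.6 and 78.9 CPM in 5xFAD. Of 46 called transcripts that were at 0 in all 5xFAD and above 0 in all WT libraries at 6 months, 24 were at 0 in all WT and above 0 in all 5xFAD libraries at 1 month, and 0 were at 0 in all 5xFAD libraries at both ages. Of 10 at 0 in all WT and above 0 in all 5xFAD libraries at 6 months, 4 had the crossed pattern and 0 were at 0 in all WT libraries at both ages.

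**Figure D5:**
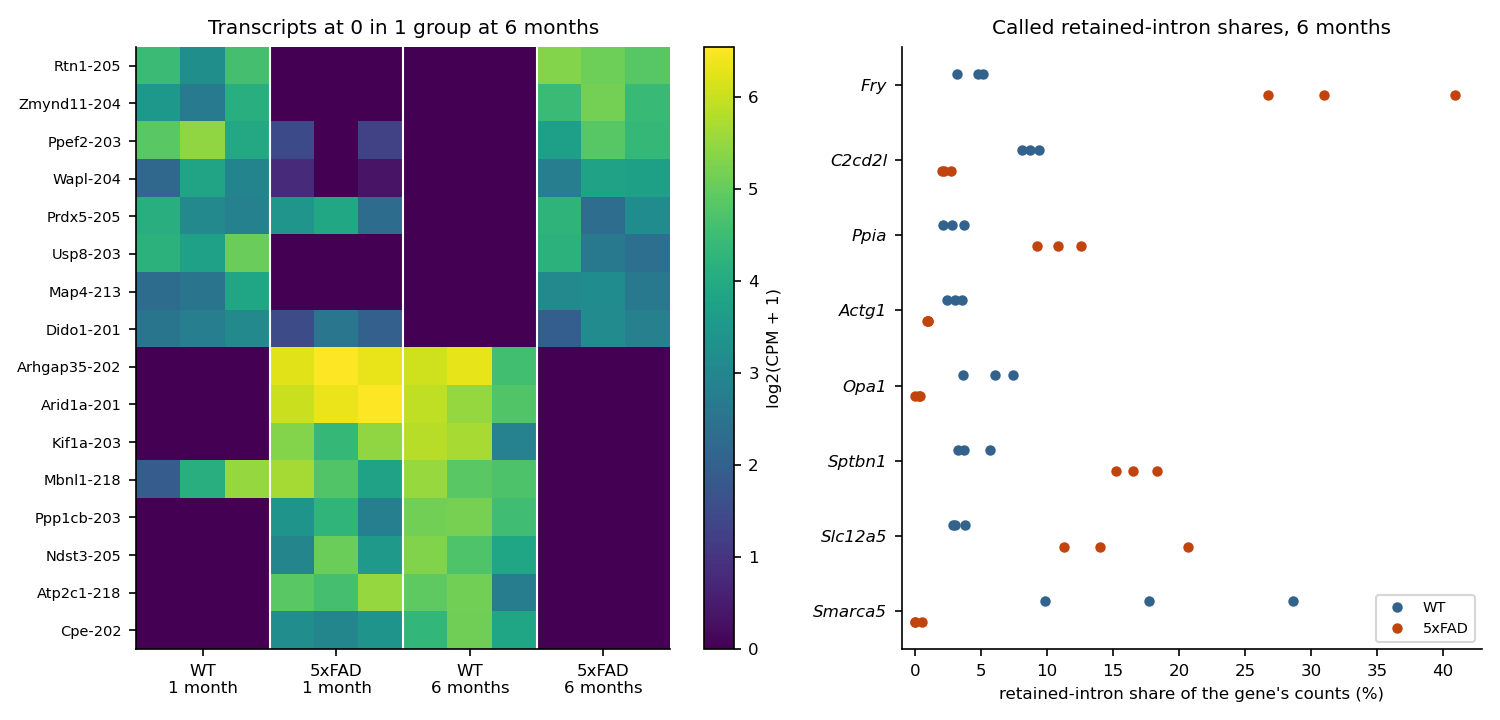
Left, log2(CPM + 1) of 16 transcripts in the 12 libraries by group; those at 0 (dark) in WT at 6 months have counts in WT at 1 month, and those at 0 in 5xFAD at 6 months have counts in 5xFAD at 1 month. Right, the retained-intron share (%) of 8 genes with a called share, each point 1 library at 6 months, blue for WT and red for 5xFAD; the genotypes do not overlap.

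The share of counts on transcripts annotated as retaining an intron was 6.35 ± 0.482% in WT and 6.05 ± 0.223% in 5xFAD (exact permutation test, two-sided, p = 0.5). Transcripts of the nonsense-mediated decay class took 2.71 ± 0.0103% in WT and 3.13 ± 0.104% in 5xFAD (exact permutation p = 0.1). Within genes, 9 of 4769 shares were called (0.189%), 4 higher and 5 lower. In Fry, a large microtubule-binding scaffold, the share was 4.79, 3.21 and 5.14% in WT and 26.8, 40.9 and 31% in 5xFAD (log2 odds ratio 3.42 ± 0.402, adjusted p 0.0118), and the gene as a whole fell (-0.71). In Ppia, the cyclophilin A gene, it was 2.11, 3.76 and 2.84% in WT and 9.26, 10.9 and 12.5% in 5xFAD. In Sptbn1 it was 3.30, 3.69 and 5.70% in WT and 18.3, 15.2 and 16.5% in 5xFAD. Slc12a5, the neuronal chloride exporter gene, was the fourth share that was higher.

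The share was lower in C2cd2l (8.13, 8.76 and 9.41% in WT; 2.19, 2.06 and 2.77% in 5xFAD), in Opa1, the fusion gene of the inner mitochondrial membrane (6.06, 7.43 and 3.63% in WT; 0, 0.358 and 0.321% in 5xFAD), and in the near-identical genes Actg1 and Smarca5. None of the 9 calls held in all fits without 1 library: the number was 0 when WT replicate 1 or 5xFAD replicate 2 was left out, 1 for WT replicate 2 and 4 for 5xFAD replicate 1, by edgeR, where the full fit had 634 shares at an unadjusted p below 0.05.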

How the data were processed

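Both tables the authors deposited, 1 of genes and 1 of transcripts, are expected counts with no normalization. According to the submitters' processing notes the build was GRCm38.p6 and the tools were RSEM 1.3.3, STAR 2.7.1a, DESeq2 1.32.0 and Trim Galore 0.6.6. The annotation is not given in the sources used here. Libraries were poly-A selected and unstranded per the labels' protocols, so reads of overlapping genes cannot be told apart by strand.

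Expected counts were rounded and fitted over all 12 libraries in R 4.3.3 with edgeR 4.0.16 (TMM, filterByExpr by group, robust quasi-likelihood, Benjamini-Hochberg). The contrast was 5xFAD minus WT at 6 months. The SE of a log2 fold change is its size over the square root of F. Coordinates, lengths and transcript classes came from GENCODE M21 (55227 of 55487 genes matched). For retained-intron shares, the edgeR model had a pair of columns per library and genes of at least 10 counts on average. Replicates of a group differed by a chi-square of 4.05 to 26.7 per degree of freedom, so none is a copy. Intervals of counting error are smaller than this spread.

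Alternatives were DESeq2 1.42.0, limma 3.58.1, other scalings and filters, the 6 libraries alone, the replicate block, removal of the length and GC trend (splines with 4 degrees of freedom), and each library left out. Added after the data were seen were the sharing of the most abundant transcript, and sums of genes with their pseudogenes. Steps were tested on simulated data. Figures used Python 3.11.15, pandas 2.3.3, numpy 2.4.6 and matplotlib 3.10.9.

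The members and gene lists were chosen with earlier results of these data known. Named are App, Thy1, Apoe, Gfap and strain-variant genes; up to 15 rises and 15 falls outside near-identical sets among stable, non-overlapping genes of at least 5 CPM, without predicted genes; up to 6 and 6 in the sets, with partners; up to 4 called members per list, and the others where a count of 5 or fewer is given; 8 and 8 transcripts; and the called retained-intron shares. Some genes this rule admits are not reported here.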

Additional observations from a re-analysis of the deposited data

Results flagged for a closer look

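For 94 genes named above, the difference between the genotype effects at 6 months and at 1 month was tested as an interaction in the same edgeR fit, and 84 passed at an adjusted p below 0.05. In 81 of the 84 the log2 fold change had the opposite sign at 1 month. Over all 16233 genes tested the interaction was called for 4054. Most of the 94 were named for their call at 6 months, and that effect is part of the interaction. The 84 are therefore no independent evidence. The values below are interactions on the log2 scale, the effect at 6 months minus that at 1 month, and a positive value means a relatively higher level in 5xFAD at 6 months.

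Among genes of translation the interaction was 1.34 for Rpl9, 1.55 for Rps19, 1.67 for Rps20, 1.24 for Rps13, 1.62 for Rpl39, 1.43 for Rps4x, 1.39 for Eif1, 1.26 for Eif3f and 1.16 for Mrps14, and it was -1.71 for Mrpl23, which was lower at both ages. In the mitochondria and the proteasome it was 1.64 for Atp5mpl, 1.35 for Atp5k, 1.36 for Atp5g3, 1.28 for Ndufa4, 1.33 for Cox5a and 1.11 for Psmb4. Metabolism and protein quality gave -0.90 for Pfkp, -1.31 for Sc5d, 1.44 for Map1lc3a, -0.70 for Hspa5 and -1.10 for Ern1.

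Photoreceptor genes gave 0.42 for Nrl, whose log2 fold change at 1 month was close to 0, 0.55 for Rorb, 1.03 for Opn1mw, 0.74 for Gnat2, 1.47 for Arr3, 0.66 for Pdc, 0.62 for Rom1, 0.47 for Guca1b, -1.36 for Impg1, -1.82 for Gucy2f and 0.94 for Crb1. At the synapse the interaction was -1.23 for Shank1, -0.95 for Sipa1l1, -0.98 for Rims1, -1.58 for Bsn, -0.70 for Cplx2, -3.40 for Grin2b, -0.90 for Grik1 and -1.07 for Gabbr2. Channels and transporters gave -0.86 for Cacna1a, -0.77 for Cacng7, -1.85 for Kcnk9, -2.02 for Kcna2, -1.58 for Kcnj10, -4.34 for Kcnh5, -2.81 for Slc8a1 and -2.68 for Slc9a7.

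Cytoskeletal and adhesion genes gave -1.21 for Kif3a, 3.26 for Kif4, -1.12 for Sptbn1, -2.12 for Tenm1 and -2.24 for Pcdhb16. Chromatin and RNA regulators gave -0.99 for Kdm2a, -1.14 for Setd1b, -1.43 for Ash1l, -1.52 for Setd7, -1.01 for Elavl3, -1.25 for Rbfox2 and -1.23 for Sfpq, and noncoding RNAs -2.18 for Mir124a-1hg, -0.76 for Meg3, -0.97 for Peg13 and 0.68 for Snhg14. Markers of other cells gave -1.01 for Prkca, -1.11 for Tfap2b, -1.74 for Ebf1, -1.34 for Kdr, -1.26 for Trpm3, -1.06 for Cp and 0.65 for Cd9. Genes around APP gave -0.43 for App, -0.99 for Apba1 and -4.52 for Mme. The remaining values were 2.75 for Fabp4, 2.23 for Ccdc51, 0.54 for Tmlhe, which was positive at both ages, -2.89 for Mtcp1, -3.53 for Soga1, -2.66 for Erbb4, -2.23 for Ankrd52, -2.40 for Tmem178b, -2.23 for Clmn and -1.39 for Wdfy1.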

How the results depend on the processing

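Scaling, filtering and DESeq2 left the counts of called genes within 1.5 times of 1035 over all genes and 850 outside the near-identical sets. Over all genes and outside the sets the counts were 167 and 73 with a 2-fold minimum, 501 and 378 in a fit of the 6 libraries, 1550 and 1305 after removal of the length and GC trend, 321 and 227 with the 3 libraries of most ribosomal RNA left out, and 276 to 1687 and 199 to 1438 without 1 library. The interaction (4054 genes) fell to 1532 with a 2-fold minimum and 2354 without the ribosomal RNA-rich libraries. Transcripts (221) went to 3737 with the DESeq2 Wald test, 64 in the 6 libraries alone, 40 with the replicate block, 122 without the ribosomal RNA-rich libraries, and 36 to 486 without 1 library. Retained-intron shares (9 by edgeR, 634 at an unadjusted p below 0.05) went to 89 with at least 50 counts, 4 with limma on the logit, 0 with limma on the logit and the replicate block, 0 by edgeR in the 6 libraries alone, and 0 to 59 without 1 library. The replicate block gave 833 gene calls (676 outside the sets). Libraries of the same number in both groups did not deviate together (Pearson r over genes -0.04, -0.07 and -0.14). With 3 libraries a group this shows no pairing by number but cannot exclude one. With another limit of shared words, 10% or 50%, 750 of 12150 and 918 of 14987 genes outside the sets were called. With the most abundant transcript as the measure there were 819 of 13681, and 1000 of 15986 were called when pseudogenes were added to their parents (both chosen after seeing the data). Of the 157 called genes that the naming rule admitted, 59 were called without the ribosomal RNA-rich libraries, 93 without WT replicate 2 and 114 in the 6 libraries alone, none of them in the other direction. The lone 5xFAD library at 6 months in the fit without ribosomal RNA-rich libraries is assumed to vary like the other groups. Depth limits low genes such as Mme, with 0 counts in several libraries. With the length and GC trend removed the split of calls turned, from 273 higher and 577 lower to 987 and 318 outside the sets and from 403 and 632 to 1169 and 381 over all genes. The cause of these shifts was not tested.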
